A study of Mus musculus with 6 samples.

Results

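Slc4a8, Taok2, Ptgs2, Fabp5 and Lgals1 are 5 genes whose levels set replicates 2 and 3 of the Vps33b knockout libraries apart from knockout replicate 1 and from the wild-type libraries. They were chosen from measured values of these same libraries, namely the difference between knockout replicates 2 and 3 and the other 4 libraries. That pattern is therefore described below without a test, and nothing is supported with it. All 5 members were found among the 32285 genes of the count table, each as 1 feature, and all 5 passed the filter on low counts that left 12568 genes. Slc4a8, Taok2 and Ptgs2 were low in knockout replicates 2 and 3, and Fabp5 and Lgals1 were high there.

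The cells, sorted from the mLN of C57BL/6 mice, were type 1 conventional dendritic cells (cDC1s). This subset takes up antigen from dying cells and infected tissue and shows it to CD8 T cells. The wild-type group (WT, 3 libraries) and the group with the genotype label Vps33BdeltaDC, a conditional knockout of Vps33b (KO, 3 libraries), had both received 50 µg of house dust mite extract by the nose 24 h before sorting. No group without the extract was analysed here, so each comparison is between genotypes of exposed mice. The labels do not give the driver of the deletion or the age of the mice. They also do not say whether a library came from 1 mouse or from a pool. Technical and biological spread between libraries therefore cannot be told apart.

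The libraries held 11755944 to 18450678 counts. Vps33b, which encodes a Sec1/Munc18-family protein of endosomal and lysosomal trafficking, was at 16.2, 19.1 and 13.8 CPM in WT replicates 1 to 3 and at 5, 7.01 and 8.29 CPM in KO replicates 1 to 3 (counts scaled to a common library total by TMM and written CPM below). Every KO library was below every WT library, and KO replicate 1 had the lowest level. All 11 listed cDC1 markers were detected and tested, with Irf8 at 1240 to 1740 CPM and Batf3 at 124 to 176 CPM over the 6 libraries. The receptor genes Xcr1 (5.72 to 44.6 CPM) and Clec9a (50.8 to 85.5 CPM) were less abundant. Of the 11 markers 9 had a log2 fold change below 0 in KO against WT, beside 6208 of 12568 over all genes. Of these, 3 were at an unadjusted p under 0.05, beside 3.06% lower over all genes, and 0 passed after adjustment by edgeR. All 13 listed genes of mature migratory dendritic cells were tested too, and they summed to 19400 to 20900 CPM in WT and to 20600, 23400 and 26800 CPM in KO replicates 1, 2 and 3.

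The 5 genes act in separate parts of the cell. Ptgs2 encodes cyclooxygenase-2, the inducible enzyme that turns arachidonic acid into the precursor of the prostaglandins, and it is switched on in dendritic cells and macrophages by microbial and inflammatory signals. Slc4a8 encodes a sodium-driven chloride-bicarbonate exchanger of the plasma membrane, which brings bicarbonate into the cell and counters acid. Taok2 encodes a kinase of the TAO family, which acts upstream of the p38 and JNK kinases and on microtubules. Fabp5 encodes a fatty acid-binding protein of the cytosol that carries fatty acids, among others to the nuclear receptor PPAR-delta. Lgals1 encodes galectin-1, a lectin that binds galactose-containing glycans on cell surfaces and is known for dampening T-cell responses.

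The promoters of the 3 genes that were low together are shown side by side. That these genes varied together follows from their choice, and shared control of them was not tested. The RefSeq table (GRCm38.p6, the same assembly as mm10) held a promoter for 3 of the 5 genes and none for Fabp5 and Lgals1. Each sequence runs 5′ to 3′ on the strand of the gene, from 250 bases before the start that RefSeq gives to 50 after it. Capitals mark matches on either strand to 4 motifs, namely the CCAAT box, the GC box with the letters GGGCGG, the E-box with the letters CACGTG, and the composite element of ETS and IRF factors.
Slc4a8: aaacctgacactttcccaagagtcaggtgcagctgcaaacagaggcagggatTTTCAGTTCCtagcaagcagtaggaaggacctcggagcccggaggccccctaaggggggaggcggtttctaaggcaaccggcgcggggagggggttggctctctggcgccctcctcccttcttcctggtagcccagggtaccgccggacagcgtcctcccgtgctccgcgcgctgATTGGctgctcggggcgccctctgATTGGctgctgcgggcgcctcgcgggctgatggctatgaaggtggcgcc
Taok2: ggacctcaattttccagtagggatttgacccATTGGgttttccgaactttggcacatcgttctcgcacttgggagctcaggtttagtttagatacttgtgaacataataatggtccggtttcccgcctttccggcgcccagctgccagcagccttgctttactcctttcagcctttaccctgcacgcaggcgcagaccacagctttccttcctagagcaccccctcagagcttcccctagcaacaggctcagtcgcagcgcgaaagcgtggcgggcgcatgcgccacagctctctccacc
Ptgs2: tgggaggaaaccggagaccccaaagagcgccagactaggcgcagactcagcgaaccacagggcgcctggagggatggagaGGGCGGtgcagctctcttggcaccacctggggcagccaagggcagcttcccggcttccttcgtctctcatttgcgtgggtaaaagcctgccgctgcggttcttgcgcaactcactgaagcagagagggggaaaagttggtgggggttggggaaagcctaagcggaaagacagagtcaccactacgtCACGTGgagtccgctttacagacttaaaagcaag
The window of Slc4a8 is chr15:100761497-100761796 on the plus strand, that of Taok2 is chr7:126884918-126885217 on the minus strand and that of Ptgs2 is chr1:150099781-150100080 on the plus strand. Their GC contents were 65.7%, 56.0% and 59.3%, against a median of 52.7% over the 32851 promoters of the table. Slc4a8 held 2 matches to the CCAAT box and Taok2 held 1, beside 37.4% of all promoters with a match. Slc4a8 also held 1 match to the ETS and IRF composite element, found in 2.72% of promoters. Ptgs2 held 1 match to the GC box, found in 35.7% of promoters, and 1 to the E-box, found in 7.15%. The looser E-box CANNTG, which takes in the stricter one and is not in capitals, was found 2 times in Slc4a8, 2 times in Taok2 and 3 times in Ptgs2, and in 72.3% of all promoters. The cAMP response element TGACGTCA, the AP-1 motif TGANTCA, the antioxidant response element TGACNNNGC and the TATA box TATAAA were searched for too and matched none of the 3 windows, beside 1.79%, 7.81%, 12.4% and 13.6% of all promoters. Only exact matches were searched for, so variants of these elements may be present. Of the motifs searched, the looser E-box was the one that all 3 windows held.

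Slc4a8 had the widest gap among the KO libraries. The gene (ENSMUSG00000023032, chromosome 15, plus strand, 100761747 to 100823968, all coordinates in mm10) has exons that cover 13021 bases. It was at 513, 482 and 391 CPM in WT replicates 1 to 3 and at 629, 136 and 144 CPM in KO replicates 1 to 3. KO replicate 1 was the highest of all 6 libraries, and KO replicates 2 and 3 were below the other 4 and close to each other. The mean of KO replicates 2 and 3 was 4.49-fold below KO replicate 1 and 3.3-fold below the WT mean. The WT libraries differed among themselves by up to 1.31-fold, and KO replicates 2 and 3 by 1.05-fold.

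Taok2 (ENSMUSG00000059981, chromosome 7, minus strand, 126865678 to 126884703) has 9316 exonic bases and was the least abundant of the 3 low genes. Its level was 60.2, 45.8 and 53.4 CPM in WT and 52.0, 14.8 and 15.9 CPM in KO. KO replicate 1 was within the WT range, whereas KO replicates 2 and 3 were below every other library. Their mean was 3.39-fold below KO replicate 1 and 3.47-fold below the WT mean. The counts behind the low values were 253 and 180 reads, with 95% Poisson intervals of 13 to 16.7 and 13.6 to 18.4 CPM, which cover counting error only.

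Ptgs2 (ENSMUSG00000032487, chromosome 1, plus strand, 150100031 to 150108227), with 4580 exonic bases, was at 199, 220 and 152 CPM in WT and at 194, 77.1 and 72.3 CPM in KO. KO replicate 1 again was within the WT range, and KO replicates 2 and 3 did not overlap with the other 4 libraries. Their mean was 2.6-fold below KO replicate 1 and 2.55-fold below the WT mean. This was the smallest gap among the 5 genes, while the WT libraries had a spread of 1.45-fold, the widest among them.

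Fabp5 (ENSMUSG00000027533, chromosome 3, plus strand, 10012548 to 10016607), with 3567 exonic bases, went the other way. It was at 175, 127 and 161 CPM in WT and at 136, 388 and 486 CPM in KO. KO replicate 1 was inside the WT range and KO replicates 2 and 3 were above every other library. Their mean was 3.22-fold above KO replicate 1 and 2.83-fold above the WT mean. KO replicate 3 was 1.25-fold above KO replicate 2.

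Lgals1 (ENSMUSG00000068220, chromosome 15, plus strand, 78926725 to 78930465) has 903 exonic bases, the fewest of the 5. It was at 18.4, 17.7 and 17.5 CPM in WT and at 16.5, 46.4 and 65.2 CPM in KO. The WT libraries and KO replicate 1 differed little, since the 3 WT libraries were within 1.05-fold of each other and the 95% Poisson interval of KO replicate 1, 14.4 to 18.8 CPM, reached over all 3 WT values. KO replicates 2 and 3 were above them, with a mean 3.38-fold above KO replicate 1 and 3.12-fold above the WT mean. KO replicate 3 was 1.41-fold above KO replicate 2, the largest difference between those libraries among the 5 genes. No exon of the 5 genes overlaps an exon of another gene in GENCODE M21. That annotation lists 1 processed pseudogene named after Fabp5 and 2 named after Lgals1, none of which is a row of the count table, and the labels do not say how reads that match such copies were counted.

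**Figure D1:**
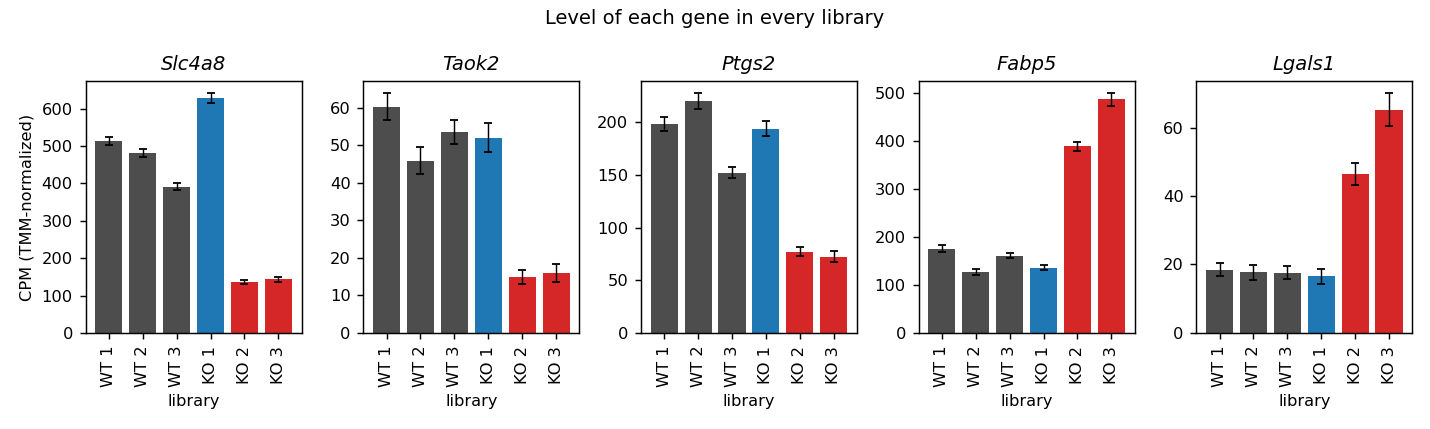
TMM-normalized CPM (vertical axes, each starting at 0) of the 5 genes in each library, with WT in grey, KO replicate 1 in blue and KO replicates 2 and 3 in red. Error bars are 95% Poisson intervals for counting error; for Slc4a8, KO replicate 1 stands at 629 CPM and KO replicates 2 and 3 at 136 and 144 CPM, while for Fabp5 they stand at 136, 388 and 486 CPM.

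Compared per length, the order of the genes differed between KO replicates 2 and 3 and the other libraries. In WT and KO replicate 1, Fabp5 (35.5 to 49.2 CPM per kb of exon), Ptgs2 (33.2 to 48.1) and Slc4a8 (30.0 to 48.3) had overlapping levels. Lgals1 (18.3 to 20.4 CPM per kb) was below them, and Taok2 (4.91 to 6.47 CPM per kb) was lowest. In KO replicates 2 and 3, Fabp5 was highest with 109 and 136 CPM per kb. Lgals1 followed with 51.4 and 72.2, Ptgs2 with 16.8 and 15.8 and Slc4a8 with 10.5 and 11, and Taok2 was at 1.59 and 1.70 CPM per kb. No neighbours in that second order overlapped, with 2 libraries behind each value. The change of order follows from the choice of the genes and is no evidence for their pattern.

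The comparison of KO with WT, which asks what differs when Vps33b is deleted, gave no call for any of the 5 genes when all 6 libraries entered the fit. Over 12568 genes, edgeR's quasi-likelihood test called 0 at an adjusted p under 0.05, or 0% of those tested. At an unadjusted p under 0.05 it had 725 genes, or 5.77%, of which Lgals1 was one and the other 4 members were not. DESeq2 called 10 of the 12568 genes, 0 of them members, and limma-voom 0. Vps33b itself, lower in every KO library, was not called by edgeR (log2 fold change -1.28 ± 0.27, adjusted p = 0.834). The lack of calls by edgeR therefore does not show that the genotypes are alike. The log2 fold changes were -0.61 ± 0.70 (SE) for Slc4a8, -0.95 ± 0.48 for Taok2 and -0.73 ± 0.41 for Ptgs2. They were 1.12 ± 0.48 for Fabp5 and 1.24 ± 0.44 for Lgals1, and edgeR's adjusted p-values of the 5 genes were between 0.834 and 0.923. Slc4a8 had a group mean of 462 ± 63.8 CPM in WT against 303 ± 282 CPM in KO (SD, n = 3 each). For Fabp5 they were 154 ± 25.1 and 337 ± 181 CPM, and for Lgals1 17.9 ± 0.48 and 42.7 ± 24.5 CPM. For Taok2 they were 53.1 ± 7.23 and 27.6 ± 21.2 CPM, and for Ptgs2 190 ± 34.9 and 114 ± 68.9 CPM. The KO libraries had the larger SD in all 5 genes. KO and WT did not overlap in 1338 genes, or 10.6% of those tested, and in 0 of the 5. The larger SD and the overlap go with the pattern by which the genes were chosen and are no evidence for it.

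Not every tool called all 5 genes, and those called passed only in fits without KO replicate 1. Without it, edgeR's quasi-likelihood test called 7 of 13173 genes, or 0.0531%, and the 5 members were among them. The log2 fold changes were then -1.72 ± 0.15 for Slc4a8 (adjusted p = 0.00939), -1.80 ± 0.20 for Taok2 (0.0305), -1.35 ± 0.18 for Ptgs2 (0.0459), 1.5 ± 0.16 for Fabp5 (0.0302) and 1.63 ± 0.20 for Lgals1 (0.0321). These values repeat the pattern by which the genes were chosen and are no evidence for it. The remaining 2 of the genes called, named after their values were seen, were Slc27a3, a fatty acid transport protein, and the transcript Gm12992. Slc27a3 was at 35.0, 25.2 and 35.0 CPM in WT and 42.4, 89.6 and 88.0 CPM in KO. Gm12992 was at 14.5, 14.4 and 16.2 CPM in WT and 25.6, 2.16 and 1.76 CPM in KO. Leaving out KO replicate 2 gave 1 call, Rarres2, and leaving out WT replicate 3 gave 1, Igha (0.00772% of the genes tested in each case). Leaving out WT replicate 1, WT replicate 2 or KO replicate 3 gave 0. None of these calls was a member. With KO replicate 1 left out, DESeq2 called 437 of 13173 genes with all 5 members among them, and limma-voom called 1 of 13173, Slc4a8. With limma-voom the adjusted p-values of the other 4 members were 0.0539 to 0.0716. With offsets for GC content and length, edgeR called 6 of 13173 genes, with 4 of the 5 members among them. Lgals1 then had an adjusted p of 0.0983 by edgeR.

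**Figure D2:**
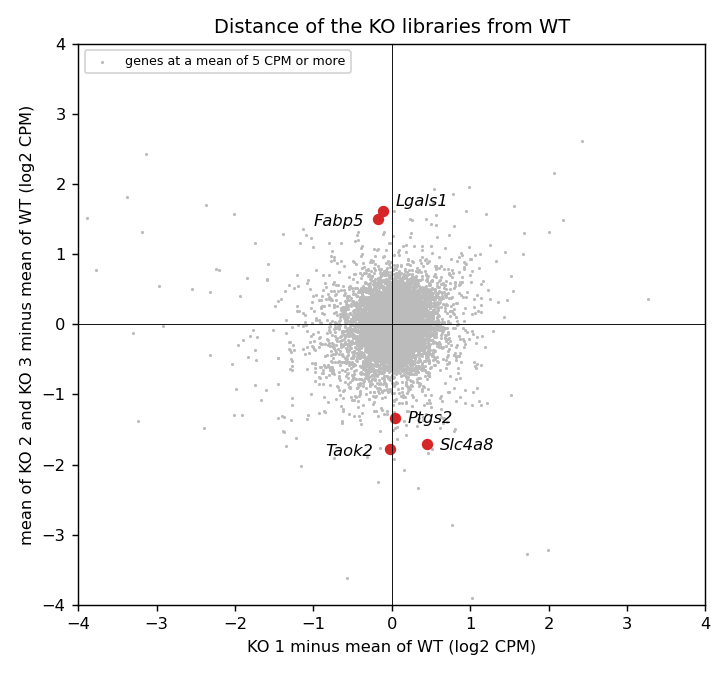
Log2 CPM of KO replicate 1 minus the WT mean (horizontal axis) against the mean of KO replicates 2 and 3 minus the WT mean (vertical axis), for 9381 genes with a mean level of at least 5 CPM, with 11 more outside the axes. The 5 named genes (red) lie within 0.5 of 0 on the horizontal axis and more than 1 from 0 on the vertical axis.

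Many other genes put KO replicates 2 and 3 apart from the rest. Between the mean of KO replicates 2 and 3 and KO replicate 1, 692 genes (5.51%) were past 2-fold higher and 864 (6.87%) past 2-fold lower among the 12568 tested. Of the same genes, 1711 (13.6%) had both of these libraries above the other 4, and 1554 (12.4%) had both below. With both conditions together, 157 genes (1.25%) were above and 321 (2.55%) below. All 5 members meet both conditions, as their choice entails. On the log2 scale, the difference between the mean of KO replicates 2 and 3 and KO replicate 1 was -2.17 for Slc4a8, -1.76 for Taok2, -1.38 for Ptgs2, 1.68 for Fabp5 and 1.73 for Lgals1. Among 9211 protein-coding genes with a mean level of at least 5 CPM, Slc4a8 had the 20th lowest difference, Taok2 the 39th and Ptgs2 the 86th lowest. Lgals1 had the 41st highest and Fabp5 the 47th highest. Over all 12568 genes tested, Slc4a8 was 180th, Taok2 325th and Ptgs2 521st lowest, and Lgals1 was 320th and Fabp5 335th highest. The genes were chosen on this difference, so the ranks are a description only.

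The genes with the largest differences by that measure were of another kind, with a level at or near 0 in at least 1 KO library. Slc10a3, a member of the bile acid transporter family, had no counts in KO replicate 1, 28.8 and 31.8 CPM in KO replicates 2 and 3 and 19.6 to 22.5 CPM in WT. 4930452B06Rik had the same shape, with no counts in KO replicate 1, 23.3 and 24.1 CPM in KO replicates 2 and 3 and 4.6 to 14.8 CPM in WT. The DNA exonuclease gene Trex1 was at 0, 2.57 and 36.8 CPM in the KO libraries, the chemokine gene Ccl8 at 0, 1.46 and 23.2 CPM and the acute-phase gene Saa3 at 1.23, 12.7 and 256 CPM. In these last 3, KO replicate 3 was far above KO replicate 2. Of the 5 genes with the largest difference downwards, Card14 (15.3, 1.87 and 0 CPM in KO) and the heat-shock gene Hspa1l (10.6, 2.28 and 0 CPM) had KO replicates 2 and 3 below all other libraries. Gm38394, Hectd2 and the haemoglobin gene Hba-a1 did not.

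The 5 genes varied together across the libraries, as the choice of members makes them do. Over the 6 libraries Pearson's r of log2 CPM was 0.95 to 0.98 among Slc4a8, Taok2 and Ptgs2 and 0.98 between Fabp5 and Lgals1. It was -0.93 to -0.97 between the 2 groups. These are descriptions over libraries that share the normalization. Of 9210 protein-coding genes with a mean level of at least 5 CPM, 78 to 119 had an r over 0.95 with any given member. The genes nearest to Slc4a8 were Vav3 (r = 0.997), Dscaml1 (0.994) and Lzts2 (0.994). Nearest to Taok2 were the Notch ligand gene Jag1 (0.993), Spats2 (0.989) and Jade2 (0.988), and nearest to Ptgs2 were Tead2, a partner of the Hippo-pathway coactivators (0.994), Zfp710 (0.992) and Lzts2 (0.992). Nearest to Fabp5 were Gngt2, a G-protein gamma subunit (0.996), the cell polarity gene Cdc42 (0.995) and Elovl1, a fatty acid elongase (0.995). Nearest to Lgals1 were the tropomyosin gene Tpm3 (0.997), Wipf1, a partner of the WASP protein (0.994), and Tmbim6 (0.993).

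Most of these neighbours had the pattern with a smaller gap. Jag1 was at 129, 122 and 130 CPM in WT and 125, 82.2 and 78.8 CPM in KO. Cdc42 was at 782, 715 and 778 CPM in WT against 743, 1020 and 1040 CPM in KO, and Tpm3 at 715, 725 and 724 CPM in WT and 699, 904 and 966 CPM in KO. The exception was Tead2, at 20.3, 26.6 and 12.6 CPM in WT and 16.8, 4.38 and 3.44 CPM in KO, whose log2 difference of -2.08 was larger than that of Ptgs2.

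The other genes of the prostaglandin pathway gave no call in KO against WT. Of 29 listed genes of synthesis, breakdown and receptors, 18 other than Ptgs2 were tested, and 0 passed over all genes by edgeR. At an unadjusted p under 0.05, 2 were lower in KO and 0 higher, beside 3.06% lower and 2.71% higher over all genes. These were Hpgd, the enzyme that inactivates prostaglandins (log2 fold change -1.44 ± 0.53, at 0.529 to 3.41 CPM), and Ptger1, a receptor for prostaglandin E2 (-0.64 ± 0.27). The median log2 fold change of the 18 was -0.13, against 0.00 for all genes. Ptger4, the prostaglandin E2 receptor gene with the highest level per length, was at 657, 579 and 740 CPM in WT and 729, 719 and 756 CPM in KO. The synthase genes Ptges3 (49.7 to 71.7 CPM in WT, 64.3 to 78.8 in KO) and Fam213b (5.28 to 7.73 and 3.26 to 5.56 CPM) had overlapping groups. The other cyclooxygenase gene, Ptgs1, picked after its values were seen, was at 6.26 CPM in WT replicate 1 and under 1 CPM in the other 5 libraries. KO replicates 2 and 3 were both below the other 4 libraries in 4 of the 18 genes and both above in 0, beside 12.4% below and 13.6% above over all genes. These 4, chosen after their values were seen, were Hpgd, the efflux pump gene Abcc4 and the phospholipase genes Pla2g4b and Pla2g6. Ptgds, Ptgdr and Ptgdr2 were at 0 in all 6 libraries.

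Slc4a8 was the SLC4 family gene with the highest level per length in WT and KO replicate 1, at 30 to 48.3 CPM per kb, but not in KO replicates 2 and 3, at 10.5 and 11 CPM per kb. The anion exchanger gene Slc4a2 was at 12 to 15.4 CPM per kb in the first 4 libraries and at 12.9 and 16.5 CPM per kb in KO replicates 2 and 3. Its level was 128, 100 and 116 CPM in WT and 125, 107 and 137 CPM in KO. Slc4a7, a sodium-bicarbonate cotransporter picked on its values, was at 19.3, 14.9 and 7.46 CPM in WT and 17.7, 7.24 and 7.67 CPM in KO, so that WT replicate 3 lay with KO replicates 2 and 3. Slc4a1, Slc4a4, Slc4a9 and Slc4a11 were at 0 in all libraries. Of the 36 listed genes of bicarbonate transport and pH control, 16 other than Slc4a8 were tested. Of these, 8 were above and 8 below 0, beside 6360 above and 6208 below over all genes. Their median log2 fold change was -0.03, against 0 for all genes, and 0 passed over all genes. At an unadjusted p under 0.05 by edgeR, 1 of the 16 was higher in KO and 0 lower, beside 2.71% higher and 3.06% lower over all genes. The higher gene was the carbonic anhydrase gene Car13 (0.72 ± 0.21), with an adjusted p of 0.834 by edgeR. Its level was 20.0 to 21.8 CPM in WT and 25.3, 39.9 and 39.2 CPM in KO. The proton channel gene Hvcn1, among the highest per length, was at 125 to 171 CPM in WT against 111 to 172 CPM in KO. Slc9a5, second in p, had a log2 fold change of -0.75 ± 0.43. In 1 of the 16 genes KO replicates 2 and 3 were both above the other libraries, and in 3 both below. Over all genes these shares were 13.6% and 12.4%.

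Of the 3 TAO kinases, only Taok2 had KO replicates 2 and 3 both below, or both above, the other libraries. Taok1 was at 141, 120 and 121 CPM in WT against 113, 123 and 120 CPM in KO, and Taok3 at 155, 159 and 167 CPM in WT and 170, 145 and 171 CPM in KO. Taok2 was below both per length, at a mean of 4.33 CPM per kb against 9.91 for Taok1 and 14.4 for Taok3. Of the 28 listed genes of TAO, p38, JNK and Hippo kinases, 25 other than Taok2 were tested. Of these, 9 were above and 16 below 0, beside 6360 above and 6208 below over all genes. Their median log2 fold change was -0.10, against 0 for all genes. None of the 25 passed over all genes or had an unadjusted p under 0.05 by edgeR, beside 5.77% at that unadjusted p over all genes. The highest per length were Mob1a (587 to 742 CPM in WT, 664 to 772 in KO), Stk4 (472 to 513 and 485 to 620 CPM), Mapkapk2 (241 to 265 and 239 to 312 CPM) and Sav1 (147 to 169 and 133 to 158 CPM), all with overlapping groups. Mapk14, which encodes p38-alpha, had a log2 fold change of -0.30 ± 0.20. KO replicates 2 and 3 were both below the other libraries in 7 of the 25 genes and both above in 3, beside 12.4% below and 13.6% above over all genes.

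Among the fatty acid-binding proteins of the Fabp family, Fabp5 and Fabp4 passed the filter on low counts. Fabp4 was at 1.01 to 8.11 CPM, Fabp1 and Fabp7 were each counted in 1 library, and Fabp2, Fabp3, Fabp6, Fabp9, Fabp12 and Pmp2 were at 0 in all 6. Of 32 listed genes of fatty acid binding and handling, 15 other than Fabp5 were tested. Of these, 6 were above and 9 below 0, beside 6360 above and 6208 below over all genes. Their median log2 fold change was -0.05, against 0 for all genes, and 0 passed over all genes. At an unadjusted p under 0.05 by edgeR, 2 of the 15 were lower in KO and 0 higher, beside 3.06% lower and 2.71% higher over all genes. These were the nuclear receptor gene Rxra (-1.26 ± 0.42, at 6.29 to 17.3 CPM in WT and 3.04 to 6.26 CPM in KO) and the fatty acid receptor gene Cd36 (-0.47 ± 0.19, at 63.7 to 81.4 and 38.7 to 63.9 CPM). The acyl-CoA synthetase gene Acsl5 was at 136 to 172 CPM in WT against 142 to 180 CPM in KO, and the lipid droplet gene Plin2 at 96.7 to 109 and 75.7 to 123 CPM. KO replicates 2 and 3 were both above the other libraries in 0 of the 15 genes and both below in 2, beside 13.6% and 12.4% over all genes. Slc27a3, named above, was not on the list.

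Among the galectins, Lgals3 and Lgals9 were also higher in KO replicates 2 and 3 than in KO replicate 1, but only Lgals9 was also above WT. Lgals9 was at 8.35, 12 and 4.24 CPM in WT and 3.69, 12.7 and 21.0 CPM in KO, so KO replicate 2 was barely above WT replicate 2. Lgals8, Lgals9 and St6gal1 were picked after their values were seen. Lgals3, a galectin abundant in macrophages, was at 78.6, 125 and 62.2 CPM in WT against 46.0, 89.9 and 213 CPM in KO, and WT replicate 2 was above KO replicate 2. Lgals8 went the other way, at 28.1, 27.7 and 31.3 CPM in WT and 38.9, 21.4 and 16 CPM in KO. Of 21 listed genes of galectins, their ligands and glycan enzymes, 15 other than Lgals1 were tested. Of these, 8 were above and 7 below 0, beside 6360 above and 6208 below over all genes. Their median log2 fold change was 0.03, against 0 for all genes, and 0 passed over all genes. At an unadjusted p under 0.05 by edgeR, 1 of the 15 was lower in KO and 1 higher, beside 3.06% lower and 2.71% higher over all genes. The galectin-9 receptor gene Havcr2 was lower (-0.66 ± 0.21) and the sialyltransferase gene St6gal1 was higher (0.34 ± 0.13). In 2 of the 15 genes KO replicates 2 and 3 were both above the other libraries, and in 2 both below. Over all genes these shares were 13.6% and 12.4%. The glycoproteins with the highest levels per length, the integrin gene Itgb1 (887 to 1100 CPM in WT, 957 to 1150 in KO) and the adhesion receptor gene Cd44 (392 to 681 and 360 to 557 CPM), had overlapping groups, as did Lgals3bp (102 to 168 and 115 to 195 CPM).

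**Figure D3:**
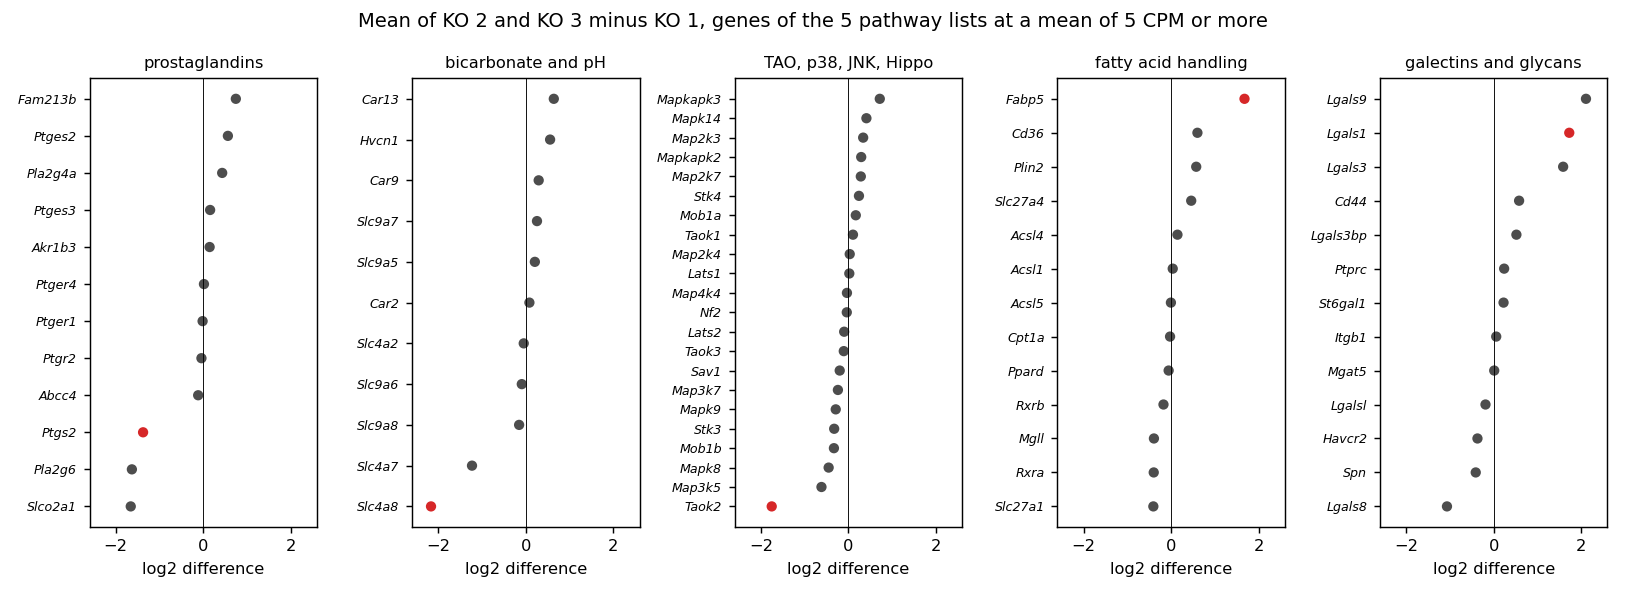
Log2 CPM of the mean of KO replicates 2 and 3 minus KO replicate 1 (horizontal axes) for the genes of the 5 pathway lists with a mean level of at least 5 CPM, one gene per row, with the 5 chosen genes in red and 1 gene left out. Taok2 (-1.76) and Fabp5 (1.68) stand apart from the other points of their lists, whereas Ptgs2 and Lgals1 each lie near 2 other genes of theirs.

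Other gene groups differed between the same libraries, and their part in the values of the 5 genes was not tested. In bulk RNA, fewer cells of a type and less RNA per cell cannot be told apart. Of the 13 listed genes of mature migratory dendritic cells, 9 had KO replicates 2 and 3 both above the other 4 libraries and 0 both below, beside 13.6% and 12.4% over all genes. The chemokine gene Ccl22 was at 2950, 1910 and 2970 CPM in WT and 2330, 3650 and 4730 CPM in KO. The co-stimulatory genes Cd86 (264 to 328 CPM in WT and, in KO, 257, 406 and 524 CPM) and Cd80 (63.3 to 81.1 and 78.1, 129 and 128 CPM) were also highest in KO replicates 2 and 3. Cd40, Relb, Cacnb3 and Tnfrsf4 of the same list did not have this pattern. Cacnb3, for example, was at 2810, 2490 and 2520 CPM in WT and 2770, 2390 and 2920 CPM in KO. Fabp5 and Lgals1 were high in the libraries in which 9 of the 13 genes were highest. The genes given in this and the next 2 paragraphs were chosen from the lists after their values were seen.

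Of the 20 listed immediate-early and heat-shock genes, 8 had KO replicates 2 and 3 both below the other 4 libraries and 0 both above, beside 12.4% below and 13.6% above over all genes. The list summed to 15400, 19700 and 13000 CPM in WT and to 18900, 12300 and 11400 CPM in KO. Fos, an immediate-early transcription factor gene, was at 867, 991 and 710 CPM in WT and 874, 560 and 395 CPM in KO. The heat-shock gene Hspa1a was at 1870, 2860 and 1220 CPM in WT and 2900, 945 and 587 CPM in KO. None of the 20 genes had an unadjusted p under 0.05 in KO against WT by edgeR, beside 5.77% over all genes.

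Markers of macrophages and monocytes summed to 387, 203 and 222 CPM in WT and to 191, 179 and 706 CPM in KO. KO replicate 3 had the highest sum and WT replicate 1 the next, and KO replicate 2 had the lowest. Of the 15 listed genes 14 were tested, and none was at 0 in all libraries. The highest library was KO replicate 3 for 8 of the 15 genes, WT replicate 1 for 3, and others for the rest. Lyz2, the lysozyme gene of myeloid cells, was at 468 CPM in KO replicate 3 and at 106 to 192 CPM elsewhere. Csf1r, the receptor gene for the macrophage growth factor, was at 52.6, 18.7 and 22.7 CPM in WT and 11.4, 9.81 and 48.8 CPM in KO. Cd14, a co-receptor gene for lipopolysaccharide, was at 15.9, 28.4 and 14.9 CPM in WT and 3.48, 4.21 and 10.6 CPM in KO, with every KO library below WT. Stromal and endothelial markers summed to 14 to 16.2 CPM in WT and to 27.4, 10.1 and 40.7 CPM in KO, with Pdgfrb at 0 in all libraries. The 8 B-cell markers summed to 178, 324 and 214 CPM in WT and to 409, 152 and 135 CPM in KO, with none at 0 throughout. KO replicates 2 and 3 had the lowest sums. The immunoglobulin heavy chain gene Ighm carried them, at 149, 255 and 180 CPM in WT and 390, 110 and 86.3 CPM in KO, while 6 of the 8 genes were more than 2-fold higher in these libraries than in KO replicate 1, beside 5.51% over all genes, and the median log2 difference was 1.32. Neutrophil markers summed to 1.10 to 1.64 CPM in WT and 1.23 to 5.82 CPM in KO, with Camp at 0 throughout. The sums of T-cell (67.5 to 89.5 in WT and 73.6 to 92.4 CPM in KO), NK-cell (3.28 to 7.14 and 5.43 to 8.47 CPM), plasmacytoid (116 to 160 and 127 to 182 CPM) and cDC2 markers (100 to 163 and 126 to 227 CPM) overlapped between the groups.

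**Figure D4:**
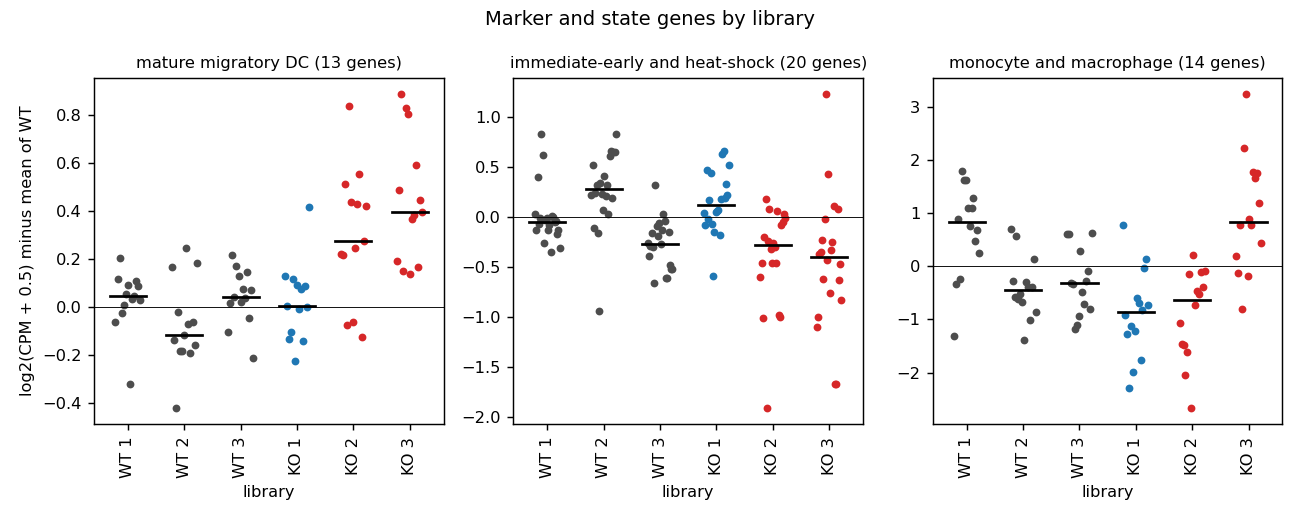
Log2(CPM + 0.5) of each tested gene of 3 lists minus its WT mean (vertical axes, with scales that differ) in each library, with black bars at the median. The bars of the mature dendritic cell genes are at 0.28 and 0.39 in KO replicates 2 and 3 and at 0.01 in KO replicate 1, those of the immediate-early and heat-shock genes at -0.28, -0.40 and 0.12, and those of the macrophage genes at -0.63, 0.83 and -0.87, with WT replicates 1 to 3 at 0.83, -0.45 and -0.32.

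The length of the transcripts moved with the same contrast, to a smaller extent. The tested genes were split into 4 classes of near-equal size by exon length. The median log2 difference between KO replicates 2 and 3 and KO replicate 1 was 0.12 in the class with the shortest exons (up to 2667 bases), which holds Lgals1. It was 0.02 in the next class, which holds Fabp5, -0.04 in that of Ptgs2 and -0.13 in the class with the longest (6664 bases or more), which holds Slc4a8 and Taok2. The 5 genes have the signs of their classes, and each gene's own difference was at least 1.38 in size. With offsets for GC content and length the difference was -1.98 for Slc4a8, -1.56 for Taok2, -1.38 for Ptgs2, 1.62 for Fabp5 and 1.48 for Lgals1, the last of which moved most. In 4 classes by GC content the median was between -0.03 and 0.00. Mitochondrial genes held 2.52% and 2.34% of counts in KO replicates 2 and 3 and 1.81% in KO replicate 1, and 1.82%, 2.43% and 1.98% in WT replicates 1 to 3.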

How the data were processed

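RNA from sorted cDC1s was read in pairs of 150 bases, per the labels' protocols. The authors deposited raw counts per Ensembl gene for 6 libraries, not normalized. Per the submitters' processing notes, HISAT2 2.0.5, HTSeq and mm10 were used. The sources used here do not give the annotation release or the strand setting. GENCODE M21 named 32235 of 32285 features (99.8%).

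Genes kept by edgeR's filterByExpr (12568) were scaled by TMM. KO was compared with WT by edgeR 4.0.16 (glmQLFit with robust estimation and legacy=FALSE, glmQLFTest) in R 4.3.3, with Benjamini-Hochberg adjustment over all genes and a threshold of 0.05. Log2 CPM used a prior count of 2. The SE is the log2 fold change divided by the square root of F. KO replicate 1 is a single library, so its difference from replicates 2 and 3 has no test. The test was checked on simulated counts in which every KO library changed alike. That check does not cover a KO library that departs from the others.

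The members, the lists and the tests were chosen with earlier results of these data known. Named genes were the members, Vps33b, the 4 genes highest per exon length and the 2 with the smallest p of each pathway list, the 3 genes nearest to each member, and the 5 with the largest difference in each direction between KO replicates 2 and 3 and KO replicate 1. A gene of the bicarbonate list that this rule names is not reported here. Other genes were picked after their values were seen. Alternatives tried were other scalings, filters and tools (DESeq2 1.42.0, limma-voom in limma 3.58.1), GC and length offsets, a block for the replicate number, and leaving out each library. edgeR's older quasi-likelihood estimate, and other tools without KO replicate 1, were added after the data were examined.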

Additional observations from a re-analysis of the deposited data

How the results depend on the processing

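All 5 genes kept the sign of their KO against WT log2 fold change under each of the 22 alternatives. These include combinations with KO replicate 1 left out. The genes were chosen from these same libraries, so neither the kept signs nor the fits without KO replicate 1 are evidence for the pattern. With 1 library left out the fold changes ran from -1.72 to -0.26 for Slc4a8, -1.8 to -0.64 for Taok2, -1.35 to -0.5 for Ptgs2, 0.76 to 1.5 for Fabp5 and 0.84 to 1.63 for Lgals1. They passed the adjusted threshold only in fits without KO replicate 1. Genes called numbered 0 with all libraries, 3 without a filter, 10 with DESeq2 and 0 to 7 with 1 library left out. The count at an unadjusted p under 0.05 was 725, 376 to 1621 with 1 library left out, the lowest without KO replicate 2, and 444 without KO replicate 3. Without KO replicate 1, calls numbered 5 with edgeR's older estimate, 437 with DESeq2, 1 with limma-voom, 6 with the GC and length offsets, 7 with RLE factors and 44 without a filter. The unadjusted counts were 1582, 1744, 1513, 1541, 1625 and 1759 in that order. In the same order, the fold changes without KO replicate 1 were -1.72, -1.73, -1.71, -1.53, -1.73 and -1.73 for Slc4a8, -1.8, -1.81, -1.8, -1.58, -1.81 and -1.81 for Taok2, and -1.35, -1.36, -1.32, -1.37, -1.36 and -1.35 for Ptgs2. They were 1.5, 1.49, 1.49, 1.44, 1.49 and 1.5 for Fabp5, and 1.64, 1.63, 1.59, 1.39, 1.62 and 1.62 for Lgals1. Genes past 2-fold between KO replicates 2 and 3 and KO replicate 1 numbered 1556, 3796 without a filter and 3293 at a fold of 1.5. The GC and length offsets gave differences of -1.98 for Slc4a8, -1.56 for Taok2 and 1.48 for Lgals1. The replicate number as a block left the count of adjusted calls at 0 and gave 942 genes at an unadjusted p under 0.05. The labels do not say that equal numbers share a source, and the deviations of same-numbered libraries correlated at 0.01, 0.03 and -0.00 over genes. The causes were not tested. Depth limits Lgals1 and Taok2 most, at 180 to 1096 reads per library. The Poisson intervals given cover counting error only and not the spread between libraries.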
